A study of Mus musculus with 4 samples.

Results

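Cholesterol handling in colonic group 2 innate lymphoid cells (ILC2s) was described through 30 genes chosen by their known roles, among 27179 gene identifiers counted. The genes cover sterol synthesis (19 enzymes), its control by the transcription factor SREBP-2 (4 genes), uptake, intracellular transport and storage (5 genes) and export (2 genes). All 30 had a row in the count table and at least 1 read, and 29 passed the filter on low counts. The exception was Abca1. ILC2s are tissue lymphocytes without rearranged antigen receptors, known for their type 2 cytokines. They came from colons of C57BL/6J mice fed a high-fiber diet (2 mice) or a control diet (2 mice), with 1 library per mouse. No genotype or agent other than the diet is named for either group. The sources used here do not give the age of the mice, the sorting gates, the number of cells, the kind of fiber or the time on the diet.

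Cells build cholesterol from acetyl-CoA through the mevalonate pathway, squalene and a series of sterol rings, and the mevalonate pathway also supplies the isoprenoids that anchor proteins to membranes. When sterols in the endoplasmic reticulum are low, SCAP carries SREBP-2 to the Golgi, where it is cut to release a factor that switches on the synthesis genes. INSIG proteins hold the complex back when sterols are plentiful. Oxysterols act through the LXR receptors, which raise the exporters ABCA1 and ABCG1 and the ubiquitin ligase MYLIP, an agent of lipoprotein receptor breakdown. Dividing and activated lymphocytes are known to need more cholesterol, and they regulate both arms.

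Library totals lay between 20253987 and 30406730 counts. The first principal component held 45.5% of the variance between libraries with scores of -12.4 and 143 for high-fiber libraries 1 and 2, against -71.6 and -58.5 for control libraries 1 and 2. High-fiber library 2 thus stood apart, so results are also given without single libraries where these decide them. All 12 ILC2 markers had counts in every library, with Il5, Ptprc and Klrg1 as the most abundant, and summed to 17080 and 14720 CPM (counts scaled to library size and composition) in the high-fiber libraries, against 13900 and 11720 CPM in the control libraries. Il5 alone gave 5889 and 3799 CPM of this in the high-fiber libraries, against 3043 and 2559 CPM in the control libraries. The sum thus depends heavily on that gene. Of the 12 log2 fold changes (high-fiber over control), 10 were positive and 2 negative, Gata3 (-0.36) and Klrg1 (-0.18). Since the libraries are bulk samples, fewer cells of a type and less RNA per cell cannot be told apart.

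Promoter sequence was available for 24 of the 30 genes, in windows of 300 bases from 250 before to 50 after an annotated start (RefSeq, GRCm38.p6). Both strands were searched for TCACNCCAC, a core of the sterol response element that SREBP-2 binds, and for CCAAT, the box of its partner NF-Y. TCACNCCAC was present in 1 of the 24 genes, Hmgcs1, and in 1.44% of all 27025 genes with a window. CCAAT was present in 21 of the 24 genes (87.5%), against 41.1% of all genes with a window and 43.4% of the 9168 such genes tested here. These are matches of letters, not binding sites, and no test was made of them. The 4 windows below are those of Hmgcs1, the gene with the TCACNCCAC match, and of Dhcr7, Mvd and Msmo1, the genes with the smallest p in the diet comparison. Each runs 5′ to 3′ on the gene's strand, and capitals mark the matches of either motif (ATTGG is CCAAT on the other strand).
Hmgcs1, chr13:119690101-119690400, plus strand: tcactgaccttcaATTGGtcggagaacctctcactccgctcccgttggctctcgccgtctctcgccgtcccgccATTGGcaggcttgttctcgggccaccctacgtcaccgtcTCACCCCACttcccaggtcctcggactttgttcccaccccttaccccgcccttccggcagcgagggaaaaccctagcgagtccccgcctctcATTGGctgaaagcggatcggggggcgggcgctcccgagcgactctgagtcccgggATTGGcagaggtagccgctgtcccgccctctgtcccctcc
Dhcr7, chr7:143829964-143830263, plus strand: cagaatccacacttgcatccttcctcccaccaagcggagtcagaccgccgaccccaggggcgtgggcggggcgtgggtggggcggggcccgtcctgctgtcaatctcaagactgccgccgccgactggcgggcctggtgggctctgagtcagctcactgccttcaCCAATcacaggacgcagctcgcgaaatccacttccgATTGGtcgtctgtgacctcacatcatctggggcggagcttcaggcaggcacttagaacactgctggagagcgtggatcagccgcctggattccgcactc
Mvd, chr8:122443373-122443672, minus strand: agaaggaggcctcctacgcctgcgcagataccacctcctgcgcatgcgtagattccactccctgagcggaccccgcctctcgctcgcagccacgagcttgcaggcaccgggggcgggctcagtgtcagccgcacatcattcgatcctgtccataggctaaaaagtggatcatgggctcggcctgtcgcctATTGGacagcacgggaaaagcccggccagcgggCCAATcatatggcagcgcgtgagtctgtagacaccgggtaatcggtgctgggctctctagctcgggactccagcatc
Msmo1, chr8:64733529-64733828, minus strand: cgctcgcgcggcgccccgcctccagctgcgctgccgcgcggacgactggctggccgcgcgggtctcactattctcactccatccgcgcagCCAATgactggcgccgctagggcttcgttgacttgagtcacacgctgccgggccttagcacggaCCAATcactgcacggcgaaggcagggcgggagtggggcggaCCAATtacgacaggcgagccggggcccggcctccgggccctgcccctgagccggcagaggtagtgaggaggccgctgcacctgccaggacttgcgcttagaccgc
In the Hmgcs1 window the TCACNCCAC match begins 137 bases before the start, and 4 CCAAT boxes lie around it. The Dhcr7 and Mvd windows hold 2 CCAAT boxes each and the Msmo1 window holds 3. Dhcr7 has 3 windows in the table, of which the one shown is the one with CCAAT boxes.

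Levels between genes were compared per transcript length, in TPM (transcript abundance per length, means over the 4 libraries). Cyp51, the lanosterol demethylase, stood highest at 272 TPM, followed by Ebp, a sterol isomerase, at 131 TPM and Sc5d, a sterol desaturase, at 129 TPM. Npc2, which hands cholesterol out of the lysosome, had 90.4 TPM, and Msmo1, which oxidises methyl groups of the sterol ring, 86.5 TPM. Of the control genes, Insig2 (76.7 TPM) lay above Insig1 (18.9 TPM), Srebf2 (18.8 TPM) and Scap (5.77 TPM). At the low end were Npc1 (4.76 TPM), Abcg1 (4.75 TPM), Idi1 (3.54 TPM) and Abca1 (0.12 TPM). Synthesis genes thus filled the top 3 places, and the exporters were among the 4 lowest genes.

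**Figure D1:**
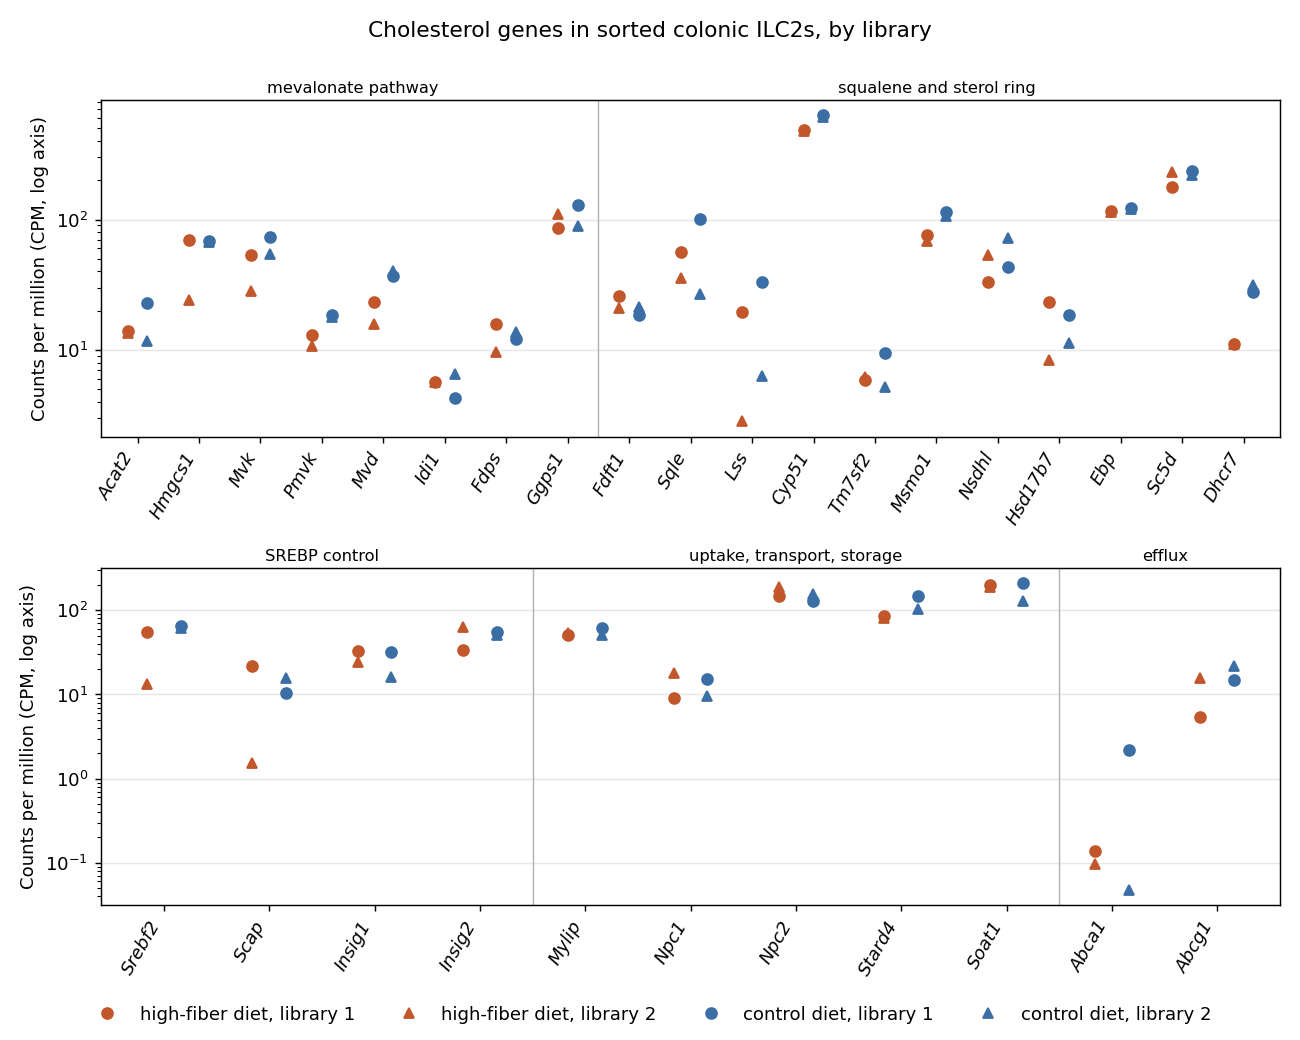
Level of each of the 30 genes in each library, in CPM on a log axis, grouped by role. High-fiber libraries are left of control libraries for each gene, with circles for library 1 and triangles for library 2. Dhcr7 lies at 11.2 CPM in both high-fiber libraries and at 27.9 and 31.7 CPM in the control libraries, while Scap and Lss spread widely within a diet.

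The comparison asked how the diet shifted these transcripts. In the fit over all 11841 genes tested, 0 of the 29 genes passed an adjusted p of 0.05 by edgeR's quasi-likelihood test, where 0.0338% of all genes passed as higher and 0% as lower. DESeq2 also called 0 of them, where 1.28% of the genes it tested were called as higher and 0.635% as lower. The count was 0 by limma-voom as well. At an unadjusted p under 0.05 by edgeR, 3 of the 29 were lower (10.3%, against 4.1% of all genes) and 0 were higher (4.7% of all genes). That count of 3 was 0 when either control library was left out, 7 without high-fiber library 1 and 2 without high-fiber library 2. The smallest adjusted p among the 29 was 0.447. The median log2 fold change of the 29 was -0.34, beside -0.016 over all genes, and 21 of the 29 (72.4%) were negative, against 51.2% of all genes. The high-fiber libraries lay below both control libraries for 9 of the 29 (31.0%, against 19.6% of all genes) and above both for 0 (18.5% of all genes). These shares describe the list, whose genes need not vary independently of each other, and were not tested. The median was -0.11 without control library 1, the deepest library, and between -0.39 and -0.29 without any other single library.

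The summed level per step showed where the lower values lay. The 11 enzymes from squalene onward summed to 1036 and 1029 CPM in the high-fiber libraries, against 1355 and 1234 CPM in the control libraries. Cyp51 alone gave 488 and 477 CPM of this in the high-fiber libraries, against 633 and 612 CPM in the control libraries. The sum thus depends heavily on that gene. The 8 enzymes of the mevalonate pathway and its branches summed to 282 and 219 CPM in the high-fiber libraries, against 366 and 302 CPM in the control libraries. For both steps the high-fiber libraries lay below both control libraries. The 4 control genes summed to 143 and 102 CPM in the high-fiber libraries, against 163 and 145 CPM in the control libraries. These groups did not overlap either, but their means differed by less than the high-fiber mice differed from each other. Uptake, transport and storage genes summed to 492 and 533 CPM in the high-fiber libraries, against 566 and 450 CPM in the control libraries, and overlapped. The exporters summed to 5.54 and 15.7 CPM in the high-fiber libraries, against 17.0 and 21.6 CPM in the control libraries. That these sums did not overlap rests on Abca1 in control library 1 (2.19 CPM), since Abcg1 alone overlapped. The difference in means was mostly that of Abcg1, with 10.5 CPM on the high-fiber and 18.2 CPM on the control diet. Abca1 averaged 0.118 CPM on the high-fiber and 1.12 CPM on the control diet. The log2 ratio of the sums, -0.87, was -1.81 without high-fiber library 2 and -0.28 without high-fiber library 1. With 2 mice against 2, a two-sided exact permutation test cannot give a p below 0.333, so the sums carry no test.

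**Figure D2:**
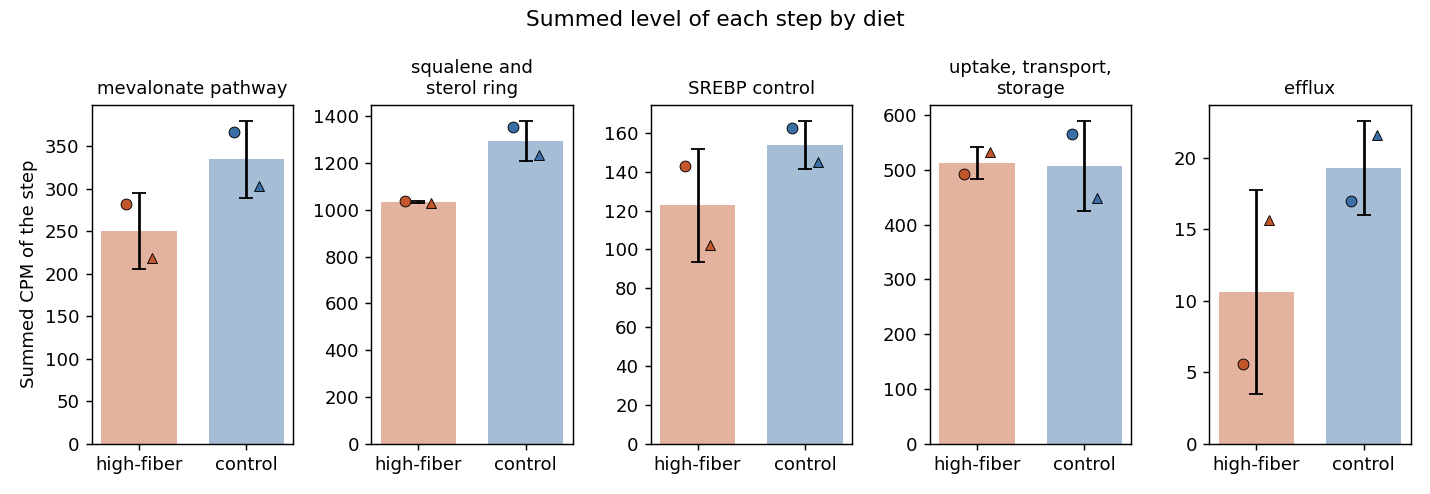
Summed CPM of each step, with bars for the mean of 2 mice, lines for the SD, circles for library 1 and triangles for library 2, and high-fiber left of control in each panel. Squalene and sterol ring enzymes average 1032 CPM on the high-fiber diet and 1294 CPM on the control diet, while uptake, transport and storage genes average 513 CPM on the high-fiber and 508 CPM on the control diet.

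The early mevalonate enzymes were mostly lower on the high-fiber diet, without any call. Mvd, which decarboxylates mevalonate diphosphate to the first isoprenoid unit, had 23.5 and 15.8 CPM in the high-fiber libraries, against 36.6 and 40.5 CPM in the control libraries. Its log2 fold change was -0.95 ± 0.37 (SE), with an adjusted p of 0.534 by edgeR, and it was among the 3 genes at an unadjusted p under 0.05. The groups did not overlap, and every fit without 1 library left it negative, between -1.26 and -0.72.

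Both kinases of the pathway were placed in the same way. Mvk, mevalonate kinase, had 53.4 and 28.5 CPM in the high-fiber libraries, against 74.0 and 54.9 CPM in the control libraries (-0.64 ± 0.38, edgeR adjusted p = 0.716). Pmvk, phosphomevalonate kinase, had 13.1 and 10.6 CPM in the high-fiber libraries, against 18.7 and 17.8 CPM in the control libraries (-0.61 ± 0.46, edgeR adjusted p = 0.790). In neither did the groups overlap, though for Mvk high-fiber library 1 lay just below control library 2. The log2 fold change of Mvk was -1.16 without high-fiber library 1 and -0.29 without high-fiber library 2.

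Hmgcs1, which makes HMG-CoA and opens the pathway, had 70.0 and 24.2 CPM in the high-fiber libraries, against 68.5 and 67.5 CPM in the control libraries. High-fiber library 1 was thus the highest of all and high-fiber library 2 the lowest, with a log2 fold change of -0.50 ± 0.47 (edgeR adjusted p = 0.836) that was 0.036 when high-fiber library 2 was left out and -1.47 when high-fiber library 1 was left out. It shares 12.1% of its exonic bases with the gene model Gm48342 on the opposite strand. Acat2, the thiolase that joins acetyl-CoA units, averaged 13.8 ± 0.32 CPM on the high-fiber and 17.2 ± 7.88 CPM on the control diet (SD, n = 2 each), and its sign turned without control library 1.

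Further down the pathway the values were closer. Idi1, the isopentenyl diphosphate isomerase, averaged 5.70 ± 0.016 CPM on the high-fiber and 5.44 ± 1.61 CPM on the control diet (SD, n = 2 each). Fdps, which makes farnesyl diphosphate, averaged 12.7 ± 4.31 CPM on the high-fiber and 13.0 ± 1.03 CPM on the control diet, and its log2 fold change of 0.017 turned negative under 7 of the 16 alternatives. Ggps1, which leads to geranylgeranyl groups rather than sterols, averaged 98.5 ± 17.4 CPM on the high-fiber and 109 ± 27.9 CPM on the control diet. All 3 had groups that overlapped. Fdps shares 26.7% of its annotated exonic bases with the overlapping gene model Gm43738 on the same strand, so its counts are uncertain.

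Among the enzymes from squalene onward, Dhcr7 stood out by its spacing. Dhcr7, the reductase that makes cholesterol from 7-dehydrocholesterol, had 11.2 CPM in each high-fiber library, against 27.9 and 31.7 CPM in the control libraries. Its log2 fold change was -1.41 ± 0.41 (SE), the lowest among the 29 genes, with an unadjusted p of 0.0126 and an adjusted p of 0.447 by edgeR and an adjusted p of 0.107 by DESeq2. It lay between -1.50 and -1.32 in the fits without 1 library.

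Msmo1, the sterol methyl oxidase, had 76.7 and 68.0 CPM in the high-fiber libraries, against 113 and 106 CPM in the control libraries (-0.60 ± 0.24, edgeR adjusted p = 0.548). Mice within a diet differed by less than the diets did, and every fit without 1 library left it between -0.66 and -0.52. Cyp51, which acts earlier on the ring, had 488 and 477 CPM in the high-fiber libraries, against 633 and 612 CPM in the control libraries (-0.37 ± 0.20, edgeR adjusted p = 0.678). It was the most abundant gene of the group, and it too kept both high-fiber libraries below both control libraries.

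Ebp varied little, at 117 and 114 CPM in the high-fiber libraries, against 124 and 120 CPM in the control libraries. The groups did not overlap, but the log2 fold change was only -0.078 ± 0.22 (edgeR adjusted p = 0.957). Nsdhl, which removes a carbon after MSMO1 has oxidised it, averaged 43.0 ± 14.3 CPM on the high-fiber and 57.9 ± 20.5 CPM on the control diet. Sc5d averaged 205 ± 37.5 CPM on the high-fiber and 227 ± 8.82 CPM on the control diet. In both the groups overlapped.

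Lss and Sqle varied more between mice of a diet than between diets. Lss, lanosterol synthase, which closes the ring, had 19.5 and 2.85 CPM in the high-fiber libraries, against 33.2 and 6.34 CPM in the control libraries. Sqle, squalene epoxidase, a rate-limiting enzyme of the sterol branch, had 56.7 and 35.5 CPM in the high-fiber libraries, against 100 and 26.6 CPM in the control libraries. In each diet library 1, the deeper one, held the higher value of both genes, and both signs turned without control library 1 (0.91 for Lss and 0.80 for Sqle). Hsd17b7, a ketoreductase, averaged 15.9 ± 10.6 CPM on the high-fiber and 14.9 ± 5.23 CPM on the control diet, and Tm7sf2, a sterol reductase, 6.04 ± 0.27 CPM on the high-fiber and 7.33 ± 3.02 CPM on the control diet. Fdft1, squalene synthase, had 23.4 ± 3.63 CPM on the high-fiber and 20.02 ± 2.00 CPM on the control diet. Its log2 fold change of 0.24 ± 0.40 was the highest of the 29 with all libraries, but it lay between 0.092 and 0.38 with a library left out. Without control library 1 several genes were higher, with Lss, Insig1 and Sqle at the top. Without control library 2 Idi1 and Npc2 were higher. Genes above it without a high-fiber library included Idi1 (0.14, without high-fiber library 1) and Scap (0.77, without high-fiber library 2). Fdft1 shares 18.3% of its exonic bases with Ctsb on the opposite strand, and Tm7sf2 shares 12.1% with Vps51 on the same strand, so both counts are uncertain.

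**Figure D3:**
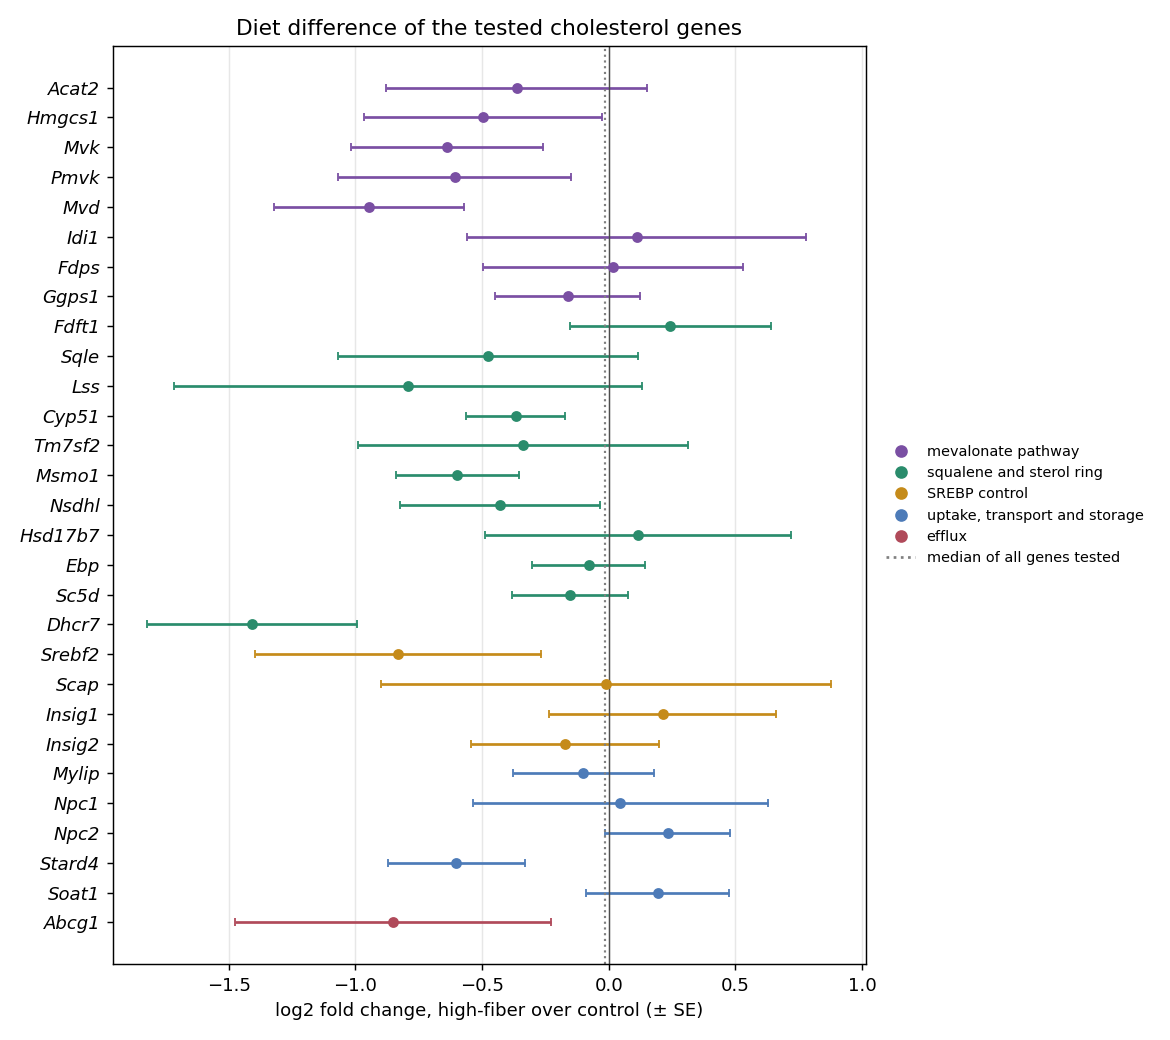
Log2 fold change of the 29 tested genes, high-fiber over control, with SE from edgeR, in pathway order from top to bottom and coloured by role. Of the 19 synthesis enzymes 15 lie left of 0, from -1.41 for Dhcr7 to 0.24 for Fdft1, and the dotted line marks the median of all genes tested at -0.016.

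The genes that control the pathway did not move as a block. Srebf2, which encodes SREBP-2 and is itself one of its targets, had 55.1 and 13.2 CPM in the high-fiber libraries, against 64.5 and 61.5 CPM in the control libraries (-0.83 ± 0.56, edgeR adjusted p = 0.756). Both high-fiber values lay below both control values, but the distance came mainly from high-fiber library 2, without which the log2 fold change was -0.20. It was -2.23 when high-fiber library 1 was left out. Scap, the SREBP escort, had 21.9 and 1.52 CPM in the high-fiber libraries, against 10.4 and 15.8 CPM in the control libraries. The high-fiber libraries thus held both the highest and the lowest value, and its log2 fold change of -0.010 ± 0.89 was 0.77 with high-fiber library 2 left out and -3.04 with high-fiber library 1 left out. Scap shares 13.2% of its exonic bases with the gene model 5830462I19Rik on the opposite strand.

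Insig1, the sterol-responsive brake on SREBP transport and a direct target of SREBP-2, had 32.7 and 24.4 CPM in the high-fiber libraries, against 32.3 and 16.2 CPM in the control libraries (0.21 ± 0.45, edgeR adjusted p = 0.941). Insig2, its less sterol-responsive relative, had 33.5 and 63.0 CPM in the high-fiber libraries, against 55.4 and 51.6 CPM in the control libraries (-0.17 ± 0.37, edgeR adjusted p = 0.941). The groups overlapped for both, and both signs turned when single libraries were left out. High-fiber library 2, low in Srebf2 and Scap, was the highest library for Insig2.

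Of the 5 genes for uptake, transport and storage, 1, Stard4, had groups that did not overlap. Its high-fiber libraries lay below both control libraries, as they did for 19.6% of all genes. The high-fiber libraries lay above both for 0 of the 5 (18.5% of all genes). Stard4, a soluble sterol carrier and known SREBP target, had 86.7 and 81.7 CPM in the high-fiber libraries, against 150 and 105 CPM in the control libraries (-0.60 ± 0.27, edgeR adjusted p = 0.613). It was negative in every fit without 1 library, between -0.83 and -0.31. Npc2 averaged 168 ± 29.4 CPM on the high-fiber and 143 ± 18.6 CPM on the control diet (0.23 ± 0.25), and Npc1, its membrane partner in the lysosome, 13.6 ± 6.48 CPM on the high-fiber and 12.4 ± 4.18 CPM on the control diet. Soat1, which esterifies cholesterol for storage, averaged 194 ± 5.65 CPM on the high-fiber and 169 ± 57.3 CPM on the control diet. Mylip averaged 52.4 ± 2.35 CPM on the high-fiber and 55.8 ± 7.29 CPM on the control diet. Neither edgeR nor DESeq2 called any of these 5 genes, and by edgeR 0 had an unadjusted p under 0.05.

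The exporters were scarce. Abca1, which loads cholesterol onto apolipoprotein acceptors, had 4 and 2 counts in the high-fiber libraries, against 66 and 1 counts in the control libraries. Control library 1 held 66 of the 67 control counts. Against the control libraries the pooled ratio was 0.0931, with an exact 95% binomial interval of 0.033 to 0.213 that covers counting error only and leaves out the spread between mice. Without control library 1 the groups lie within a few counts of each other. Abcg1, which exports sterols to lipoproteins, had 5.40 and 15.6 CPM in the high-fiber libraries, against 14.8 and 21.6 CPM in the control libraries (-0.85 ± 0.63, edgeR adjusted p = 0.785). Its groups overlapped by a narrow margin, and the value ran from -1.73 without high-fiber library 2 to -0.17 without high-fiber library 1.

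**Figure D4:**
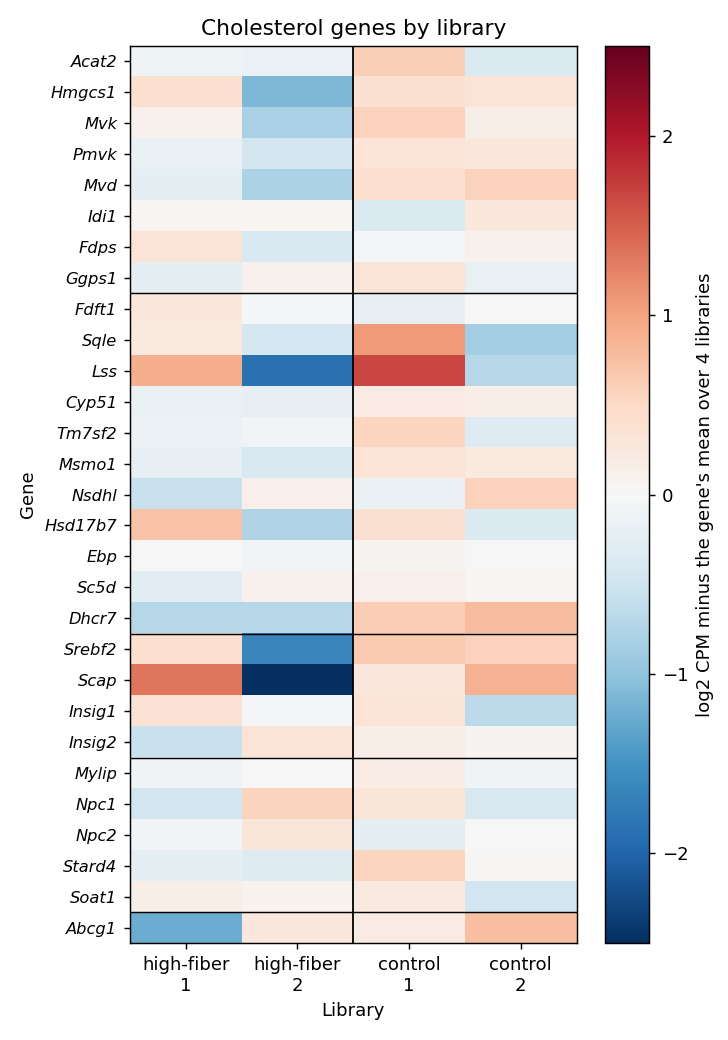
Each gene's log2 CPM minus its mean over the 4 libraries, high-fiber libraries left and control libraries right, with red for above and blue for below the mean. High-fiber library 2 is lowest for Scap at -2.49, for Lss at -1.86 and for Srebf2 at -1.64, while Dhcr7 is at -0.71 in both high-fiber libraries.

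Across the 29 genes, high-fiber library 2 held the lowest value for 13 genes, high-fiber library 1 for 7, control library 1 for 3 and control library 2 for 6. Over all genes, high-fiber library 2 was lowest for 31.8%, high-fiber library 1 for 22.8%, control library 1 for 23.9% and control library 2 for 21.5%. Control library 1 held the highest value for 15 of the 29 and for 24.8% of all genes. Dhcr7, Mvd, Msmo1, Cyp51, Pmvk and Stard4 were low in both high-fiber mice, while the low values of Hmgcs1, Srebf2 and Scap were those of high-fiber library 2. This grouping was made after the values were seen.

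Other genes around the pathway were read from 5 lists with 60 genes, of which 53 were tested. Neither edgeR nor DESeq2 called any of the 53. By edgeR 1 of them, Me1, was higher at an unadjusted p under 0.05 (4.7% of all genes) and 0 were lower (4.1% of all genes). Their median log2 fold change was -0.12, with 31 of 53 negative, against 51.2% of all genes. Of the genes for SREBP processing and sterol-regulated degradation, 0 of 9 passed (median -0.12). The ubiquitin ligases Rnf139 (0.60) and Syvn1 (-0.60) were among those of smallest p. Of the oxysterol and LXR genes, 0 of 6 tested passed (median 0.23). The smallest p belonged to the receptor partner Rxrb (1.13), Cyp27a1 (-1.86, with 0 counts in 1 library of each diet) and Hsd3b7 (0.69, with 0 counts in 1 control library). Rxrb had 26.3 and 4.12 CPM in the high-fiber libraries, against 8.15 and 6.53 CPM in the control libraries. The sterol hydroxylases Cyp7b1 and Cyp46a1 had 0 counts in all 4 libraries, which allows up to 3 counts in each.

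In the list of other uptake, transport and storage genes 0 of 15 tested passed, with 12 negative and a median of -0.29. Gramd1a, which moves cholesterol from the plasma membrane to the endoplasmic reticulum, had 248 and 78.7 CPM in the high-fiber libraries, against 368 and 278 CPM in the control libraries (-0.97 ± 0.49, edgeR adjusted p = 0.660), without overlap. Osbpl9 (0.41) and Gramd1b (-0.61) followed, and Vldlr and Abcg4 had 0 counts in all 4 libraries. Isoprenoid branch genes had 0 of 12 passing and a median of 0.011, with the smallest p for Icmt (-1.51), Rce1 (0.46) and Nus1 (-0.66). Icmt had 7.69 and 5.25 CPM in the high-fiber libraries, against 28.2 and 7.77 CPM in the control libraries. Its value thus came mainly from control library 1.

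Genes of fatty acid synthesis, a neighbouring lipid pathway, had 0 of 11 passing, 8 negative and a median of -0.51. The median was the same with Me1 set to the 38.8-fold difference given below. Acsl3, a long-chain acyl-CoA synthetase, had 16.5 and 11.2 CPM in the high-fiber libraries, against 29.3 and 26.2 CPM in the control libraries (-0.98 ± 0.42, edgeR adjusted p = 0.590), without overlap. Fasn, fatty acid synthase, had 5.99 and 0.049 CPM in the high-fiber libraries, against 18.1 and 6.53 CPM in the control libraries (-1.90 ± 0.99, edgeR adjusted p = 0.670), and high-fiber library 2 held 1 count. Me1, the cytosolic malic enzyme, was placed the other way, with 63 and 49 counts in the high-fiber libraries, against 0 counts in both control libraries (edgeR adjusted p = 0.447). With 3 counts assumed over the control group as a whole it was 38.8-fold higher. That figure leaves out the error of the high-fiber counts and the spread between mice. Scd1 and Fads2 had 0 counts in all 4 libraries.

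Markers of other cells and states are given beside these results, and edgeR called 0 of them. Macrophage, monocyte and dendritic cell markers, cells rich in cholesterol exporters, summed to 443 and 458 CPM in the high-fiber libraries, against 268 and 394 CPM in the control libraries, with Apoe, Lyz2 and Zbtb46 the most abundant of 16 and Itgax at 0. B and plasma cell markers summed to 345 and 1229 CPM in the high-fiber libraries, against 156 and 39.1 CPM in the control libraries, mostly from Igkc, Igha and Jchain. Of the 6 tested, 5 were higher at an unadjusted p under 0.05 by edgeR, where 4.7% of all genes were higher. In all 6 the high-fiber libraries lay above both control libraries (18.5% of all genes). DESeq2 also called 0 of the 6. Epithelial markers summed to 31.9 and 42.4 CPM in the high-fiber libraries, against 38.3 and 31.0 CPM in the control libraries, mostly from Epcam and Lgals4, and 6 of 10 (Krt8, Krt20, Cdh1, Vil1, Car1 and Muc2) had 0 counts in all 4 libraries.

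T cell markers summed to 206 and 192 CPM in the high-fiber libraries, against 211 and 270 CPM in the control libraries, mostly from Trbc2, with Cd8a, Cd8b1 and Cd5 at 0. DESeq2 called Themis, a T cell signalling gene, lower (edgeR log2 fold change -2.83, DESeq2 adjusted p = 0.00967). Stromal and endothelial markers summed to 64.5 and 42.2 CPM in the high-fiber libraries, against 44.2 and 42.4 CPM in the control libraries, nearly all from Pecam1, with Pdgfra and Kdr at 0. Genes of dividing cells summed to 181 and 209 CPM in the high-fiber libraries, against 162 and 167 CPM in the control libraries, led by Pcna and Tyms, and DESeq2 called Tyms higher (edgeR log2 fold change 1.53, DESeq2 adjusted p = 0.0258). Themis was named, and Tyms described, after their values were seen. Immediate early genes such as Junb, Fos and Nr4a1, which stimulation and cell handling both induce, summed to 17980 and 10220 CPM in the high-fiber libraries, against 31190 and 26620 CPM in the control libraries. All 10 had negative log2 fold changes, and 8 lay at an unadjusted p under 0.05 by edgeR, where 4.1% of all genes were lower. At an adjusted p of 0.05 edgeR called 0 of the 10, and DESeq2 called 7 lower. The part of any of these in the values of the cholesterol genes was not tested.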

How the data were processed

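The authors deposited raw read counts for 27179 NCBI gene identifiers in each library, per the file headers. CASAVA 1.8.2, STAR 2.3.0 and mm10 are named in the submitters' processing notes, and libraries came from an ultra-low-input SMARTer kit, per the labels' protocols. The sources used here do not give the counting program or strand setting, so overlapping genes and near-identical copies may share reads. Symbols were matched through RefSeq GRCm38.p6, whose chromosomes are those of mm10, for 25275 identifiers. The others held 0.212% to 0.248% of a library's counts.

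Counts were tested in R 4.3.3 with edgeR 4.0.16 (filterByExpr, which kept 11841 of 15425 genes with a count, TMM, glmQLFit with legacy=FALSE and robust off, glmQLFTest, Benjamini-Hochberg over all genes at 0.05). Diet was the only term besides the intercept, which left 2 residual degrees of freedom, and the common biological coefficient of variation was 0.607. Positive log2 fold changes mean higher on the high-fiber diet, and SE is the fold change over the root of its F statistic. CPM used TMM-scaled sizes, and TPM used the median length of each gene's principal GENCODE M21 transcripts, known for genes with 98.5% to 98.94% of the counts. A count of 0 allows up to 3 counts, and intervals cover counting error only. P-values set the diet difference against the spread between single mice of a diet, as estimated with information shared over all genes.

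Other settings tried were no filter or one of 5 CPM in 2 or more libraries, DESeq2 1.42.0, voom from limma 3.58.1, factors by RLE, by upper quartile or absent, robust=TRUE, legacy=TRUE, omission of each library, the library number as a replicate block, omission of hemoglobin, mitochondrial and ribosomal genes, and a threshold of 0.1. The 30 genes, the lists, the motifs and the legacy setting were chosen with earlier results of these data known. Values per library were to be given for genes at an unadjusted p under 0.05, for those without overlap and for the control and export genes. Those of Hmgcs1, Lss and Sqle, and the promoters of Dhcr7, Mvd and Msmo1, were added after values were seen. Of each other list up to 3 genes of smallest p are named, and of each marker list the most abundant and those at 0. Some further genes of the pathway are not reported here.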

Additional observations from a re-analysis of the deposited data

How the results depend on the processing

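None of the 29 genes was called under any of the 16 alternatives, with 0.107 (Dhcr7 with DESeq2) as the smallest adjusted p among their values. Of 464 values of single genes, 435 kept their sign and 29 turned. The kept ones include those at the threshold of 0.1, which reuses the main fit. They also include those with robust=TRUE, which left every log2 fold change of these genes unchanged. Neither setting bears on how stable the signs are. Without a change of libraries 7 turned: Fdps at -0.023 (no scaling factors), -0.011 (DESeq2), -0.012 (limma-voom), -0.025 (legacy=TRUE) and -0.0013 (replicate block), Npc1 at -0.022 (limma-voom) and Scap at 0.0022 (RLE). Leaving out single libraries gave Acat2 from -0.73 to 0.24, Hmgcs1 from -1.47 to 0.036, Idi1 from -0.20 to 0.40, Fdps from -0.39 to 0.29, Ggps1 from -0.39 to 0.13, Sqle from -1.11 to 0.80, Lss from -2.86 to 0.91, Tm7sf2 from -0.65 to 0.22, Hsd17b7 from -0.84 to 0.60 and Sc5d from -0.35 to 0.052. It gave Scap from -3.04 to 0.77, Insig1 from -0.17 to 0.82, Insig2 from -0.68 to 0.26, Mylip from -0.22 to 0.049, Npc1 from -0.50 to 0.54 and Soat1 from -0.11 to 0.60. The other 13 genes, Dhcr7, Mvd, Msmo1, Cyp51, Mvk, Pmvk, Stard4, Srebf2 and Abcg1 among them, kept their sign throughout, with Nsdhl from -0.80 to -0.024 and Npc2 from 0.041 to 0.43. Leaving out single libraries, the median of the 29 ran from -0.39 to -0.11, negative values from 17 to 24 genes, and those lower at an unadjusted p under 0.05 from 0 (without either control library) to 7 (without high-fiber library 1). The log2 ratio of summed levels ran from -0.58 to -0.25 for the mevalonate pathway, from -0.56 to -0.11 for SREBP control, from -0.40 to -0.26 for squalene and sterol ring enzymes, from -0.14 to 0.19 for uptake, transport and storage, and from -1.81 to -0.28 for export. Over all genes, 4 higher and 0 lower calls became 0 and 0 with no filter, limma-voom, legacy=TRUE or the replicate block, 8 and 1 with the 5 CPM filter, and 159 and 79 with DESeq2, and 0 to 1 higher calls without a library. The labels do not say that library numbers pair mice, the correlation of their differences between diets was 0.0242, and the replicate block changed no call of the 29. The cause of these changes was not tested, and 2 mice per diet limit the precision of genes whose mice differ.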
